A study of Homo sapiens with 10 samples.

Results

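Intronless protein-coding genes were examined by SLAM-seq in 22RV1, an established human cell line of prostate cancer that is castration-resistant. A gene of the nuclear genome was taken as intronless when each of its protein-coding transcripts in GENCODE v44 has 1 exon, and the clustered histone genes, 40 of which had an interval, were left out. Of 31015 genes with a counted 3′ UTR interval, 701 were intronless, and they held 710 of 92826 intervals. The 18234 protein-coding genes with introns were the genes of comparison. In 654 of the 701, every annotated transcript of any kind has 1 exon.

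The study compared 5 groups of 2 libraries: control cells without treatment and cells given, for 4 h, SRPIN340 (20 μM), Endovion (50 μM), THZ531, or Endovion on top of THZ531. SRPIN340 is an inhibitor of SRPK1, a kinase of SR splicing factors, and the study used Endovion (SCO-101) as another one; THZ531 inhibits CDK12 and CDK13, kinases of elongating RNA polymerase II. The THZ531 dose is 150 nM in the description of the series and 100 nM in the methods, and SRPIN340 in combination with THZ531 was not analysed here. 4-thiouridine was present for the last 10 min, and reads with a T>C conversion were taken as nascent RNA, made during labelling. Such reads can also arise without the label, and those were not subtracted. All groups are 1 cell line, the control cells are labelled as having no treatment, and whether they received the solvent is not given in the labels. Nothing in the labels says that the 2 libraries of a group came from separate cultures, so p-values measure only the spread between these libraries, which may be technical.

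A gene without introns gives a complete mRNA from 1 stretch of DNA as soon as the 3′ end has been cut. Such mRNAs reach the cytoplasm through export adaptors bound along the transcript, without the complexes that splicing leaves on other mRNAs. The class is known for short genes that respond early to signals, such as JUN and JUNB, for many G protein-coupled receptors, and for genes that arose by retroposition of a spliced mRNA.

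Promoters are shown, to be compared by eye, of members whose nascent RNA rose (HEXIM1, JUNB, JUN) or fell (FANCF, DDX28, DNAJC30, DOLK) with THZ531. That of CEBPB, which rose with SRPIN340 and Endovion and was not called with THZ531, is shown beside them. Other members that rose or fell with THZ531, such as IER5L and RBM15B, are not shown. Each line holds the 120 bases before the RefSeq transcription start (GRCh38.p14), 5′ to 3′ on the strand of the gene. Capitals mark the TATA motif TATAAA, the CCAAT box, the GC box GGGCGG or the CRE motif TGACGTCA on either strand; the 2 GGGCGG matches of DNAJC30, read on the other strand as CCGCCC, overlap by a base. The regions are chr17:45148355-45148474 (plus strand) for HEXIM1, chr19:12791366-12791485 (plus) for JUNB, chr20:50190710-50190829 (plus) for CEBPB, chr1:58784048-58784167 (minus) for JUN, chr11:22625824-22625943 (minus) for FANCF, chr16:68023233-68023352 (minus) for DDX28, chr7:73683454-73683573 (minus) for DNAJC30 and chr9:128947604-128947723 (minus) for DOLK.
HEXIM1: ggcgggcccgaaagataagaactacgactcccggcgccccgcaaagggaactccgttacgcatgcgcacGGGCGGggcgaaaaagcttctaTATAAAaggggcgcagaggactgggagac
JUNB: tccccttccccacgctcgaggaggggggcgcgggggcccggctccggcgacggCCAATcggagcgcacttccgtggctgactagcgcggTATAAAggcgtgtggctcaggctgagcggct
CEBPB: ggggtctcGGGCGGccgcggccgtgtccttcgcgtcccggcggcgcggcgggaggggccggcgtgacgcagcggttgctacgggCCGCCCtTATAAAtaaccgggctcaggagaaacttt
JUN: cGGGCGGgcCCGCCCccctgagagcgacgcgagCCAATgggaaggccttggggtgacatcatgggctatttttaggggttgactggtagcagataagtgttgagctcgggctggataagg
FANCF: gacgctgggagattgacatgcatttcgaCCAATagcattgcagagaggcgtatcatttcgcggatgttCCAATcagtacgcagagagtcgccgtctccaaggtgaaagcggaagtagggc
DDX28: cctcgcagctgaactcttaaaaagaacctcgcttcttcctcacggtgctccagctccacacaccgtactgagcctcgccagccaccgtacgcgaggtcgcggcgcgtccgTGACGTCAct
DNAJC30: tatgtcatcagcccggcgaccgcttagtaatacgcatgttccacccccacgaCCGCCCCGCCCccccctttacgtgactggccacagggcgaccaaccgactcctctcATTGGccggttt
DOLK: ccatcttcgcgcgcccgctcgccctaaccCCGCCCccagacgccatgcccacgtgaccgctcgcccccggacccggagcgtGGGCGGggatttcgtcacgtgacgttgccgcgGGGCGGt

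TATAAA stood 29 to 24 bases before the start in HEXIM1 and in CEBPB, and 31 to 26 bases before it in JUNB. A TATA box is the site at which the TATA-binding protein places the polymerase, and it is usual in strongly inducible genes. Over the members tested for total RNA with a RefSeq promoter, TATAAA lay on the gene's strand between 40 and 20 bases before the start in 11 of 162 (6.79%), against 156 of 10162 multi-exon genes (1.54%). The 11 were ADRA2A, ATOH7, CEBPA, CEBPB, FZD8, H2AX, HEXIM1, INSM2, JUNB, PTTG2 and SEPHS2. Of these, H2AX, HEXIM1 and JUNB were called higher in total RNA with THZ531, and the others were not called. With the combination CEBPB, HEXIM1 and JUNB were called higher and the others were not called. A link between the motif and these changes was not tested. Within 250 bases before the start and on either strand, TATAAA was found in 10.8% of 34943 RefSeq promoters, CCAAT in 32.0%, GGGCGG in 42.5% and TGACGTCA in 1.63%. In that wider window TATAAA was found in 15 of the 162 members (9.26%), a smaller share than of all RefSeq promoters, and in 5.12% of the multi-exon genes.

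AU-rich elements built on ATTTA are known for the rapid decay of early-response mRNAs. The counted 3′ intervals of JUN and IER5 hold TATTTAT, a longer form, and those of JUNB, HEXIM1 and IER5L hold ATTTA without it. The first match of each is shown in capitals in a window of 30 bases (hg38). The windows are chr1:58780818-58780847 (minus strand) for JUN, chr1:181091980-181092009 (plus) for IER5, chr19:12793060-12793089 (plus) for JUNB, chr17:45150400-45150429 (plus) for HEXIM1 and chr9:129176604-129176633 (minus) for IER5L.
JUN: ttgcttatgaaTATTTATaacagcattctt
IER5: ccataataatgTATTTATagaattaaacat
JUNB: atatatttgtgtATTTAacagggaggggaa
HEXIM1: ttggtttcgtaaATTTAgctatatgtagct
IER5L: gaaaaagcgcctATTTAagtatgctttgtg

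ATTTA on the strand of the gene was present in the intervals of 163 of 215 members tested for total RNA (75.8%) and in 72.8% of 12493 multi-exon genes, with median interval lengths of 1122 and 1310 bases. IER5 had 10 ATTTA and 4 TATTTAT in 3013 bases. HPS6, DDX28 and SFN, described below, had no ATTTA in their intervals. Other members that fell did have it: FANCF 4, KBTBD7 5, DNAJC30 2, DOLK 1, and RBM15B 3 with 2 TATTTAT. These matches describe the sequence and were not tested for binding or function.

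The libraries had 35517462 to 53592904 mapped reads, and 1011591 to 1576102 T>C reads fell on genes. Of 11 markers of prostate epithelium, 8 had at least 10 CPM (reads scaled to a common library size) in every library, and of 13 markers of leukocytes, fibroblasts, endothelium and neurons, 10 stayed under 1 in every library. Libraries of the same group were not copies of each other: the chi-square of their counts was 3.54 to 4.90 times its degrees of freedom.

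Reads were found on 332 of the 701 intronless genes (47.4%) and on 84.5% of the multi-exon genes, and 369 members had no read in any library. T>C reads were found on 249 members. The silent members include olfactory receptors, of which 3 of 87 had a read, and interferons, of which 1 of 16 had one. The low-count filter left 215 members for the test of total RNA and 133 for the test of nascent RNA. The filter keeps a gene that has reads in the libraries of any 1 group, so counts and medians over the tested members describe those members, not all 701. The median member spanned 1679 bases, against 30416 for multi-exon genes, so multi-exon genes with a span of at most 10000 bases are given beside the whole class.

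The part of T>C reads and of all reads that fell on intronless genes was lowest when THZ531 and Endovion were combined. Of every 1000 T>C reads on intronless and multi-exon genes together, 15.4 and 15.7 fell on intronless genes in the control libraries, 14.8 and 15.1 with SRPIN340, 14.9 and 14.2 with Endovion, 15.7 and 15.3 with THZ531, and 12.9 and 13.4 with the combination. Both libraries of the combination lay below the other 8, whereas THZ531 alone overlapped control. Of all reads, 14.1 and 14.9 per 1000 fell on intronless genes in control libraries, 12.9 and 12.9 with SRPIN340, 13.05 and 12.3 with Endovion, 13.4 and 12.996 with THZ531, and 10.5 and 11.2 with the combination. For all reads the control libraries were the highest of the 10 and the combination the lowest. The mean of all reads fell by 1.62 per 1000 with SRPIN340, by 1.79 with Endovion, by 1.28 with THZ531 and by 3.64 with the combination. Without the 5 members that had most reads it fell by 0.0735, 0.0252, 0.940 and 1.77, so that nearly all of the falls with SRPIN340 and Endovion lay in those members.

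**Figure D1:**
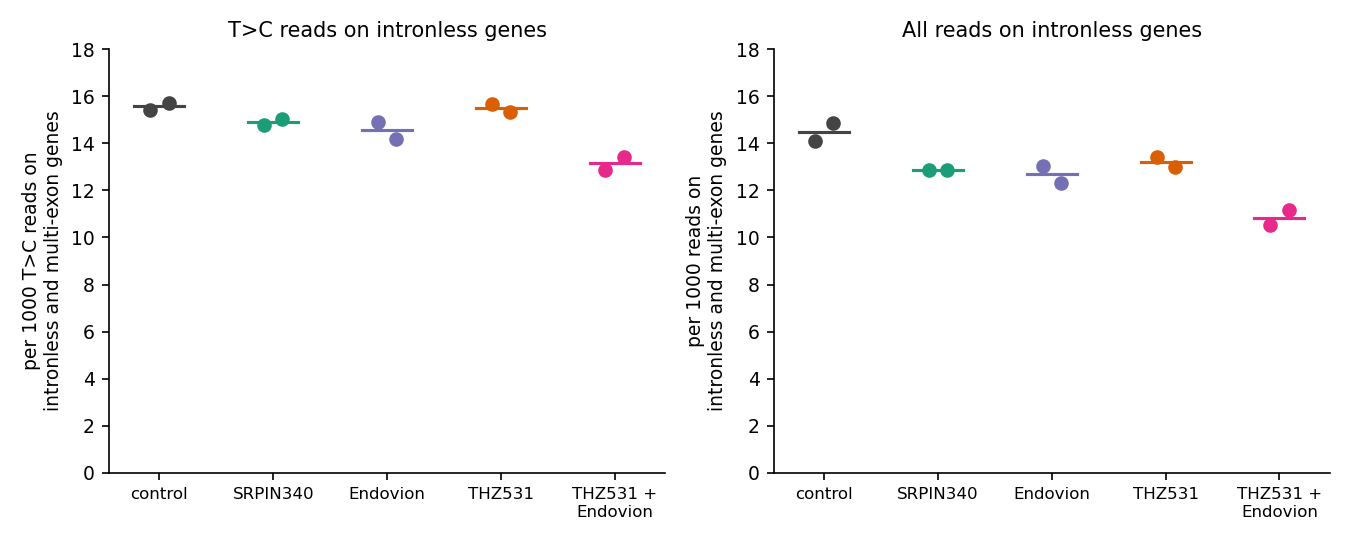
T>C reads (left) and all reads (right) on intronless genes, per 1000 reads of the same kind on intronless and multi-exon genes, on axes that start at 0. Points are libraries, 2 per group, and bars their mean. The combination lies at 12.9 and 13.4 on the left and at 10.5 and 11.2 on the right, below every other library.

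An exact permutation test of the F ratio over the 945 ways to pair the 10 libraries into 5 groups gave p = 0.00847 for T>C reads and p = 0.00847 for all reads, 0.0141 each after adjustment over 5 measures; the smallest p it can give is 0.00106. The mean fell by 2.42 T>C reads per 1000 with the combination, by 1.02 with Endovion, by 0.649 with SRPIN340, and with THZ531 the difference from control was -0.0527. Without the 5 members that had most T>C reads the mean fell by 1.40 with the combination, by 0.378 with Endovion and by 0.130 with SRPIN340, so that most of the last 2 falls lay in those members. When overlapping intervals were summed without choosing 1 of them, the mean fell by 1.14 with the combination, by 0.494 with Endovion and by 0.299 with SRPIN340. That sum takes in 55708 instead of 25920 intervals of multi-exon genes but 710 instead of 702 of intronless genes. Its values per 1000 are therefore on another scale. An exact two-sided test of 1 treatment against control, 2 libraries against 2, gives a p of 0.333 at best, and no test with the spread pooled over groups was run on these sums. The mean with THZ531 was 0.311 above control without the 5 members that had most T>C reads, 0.0398 above it without members that have a near copy, 0.101 above it without control library 2 and 0.118 above it without THZ531 library 2. These values are parts of a library: fewer cells and less RNA per cell cannot be told apart here.

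The labelled share is the number of T>C reads per 100 reads, and rises with the rate at which a stable level of mRNA is renewed. Over intronless genes it lay between 5.82% and 6.63% in the 10 libraries, and over multi-exon genes between 5.08% and 5.73%. No difference between groups passed the exact permutation test, with p = 0.372 for intronless and p = 0.225 for multi-exon genes (0.372 and 0.282 after adjustment over 5 measures). The ratio of both shares within a library was 1.096 and 1.06 in control cells, 1.15 and 1.17 with SRPIN340, 1.14 and 1.15 with Endovion, 1.17 and 1.18 with THZ531, and 1.23 and 1.21 with the combination. The control libraries were the lowest and the combination the highest, with no overlap between either and the rest. The exact permutation test of the F ratio over the 5 groups gave p = 0.00317 (adjusted p = 0.0141). The exact test of each treatment against control gave p = 0.333, the smallest it can give. The place of the combination above THZ531 was not kept in conversions per covered T position, where the ratio was 1.296 and 1.336 with THZ531 and 1.339 and 1.298 with the combination. No unlabelled library was analysed here, so T>C reads that arise without the label were not subtracted.

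**Figure D2:**
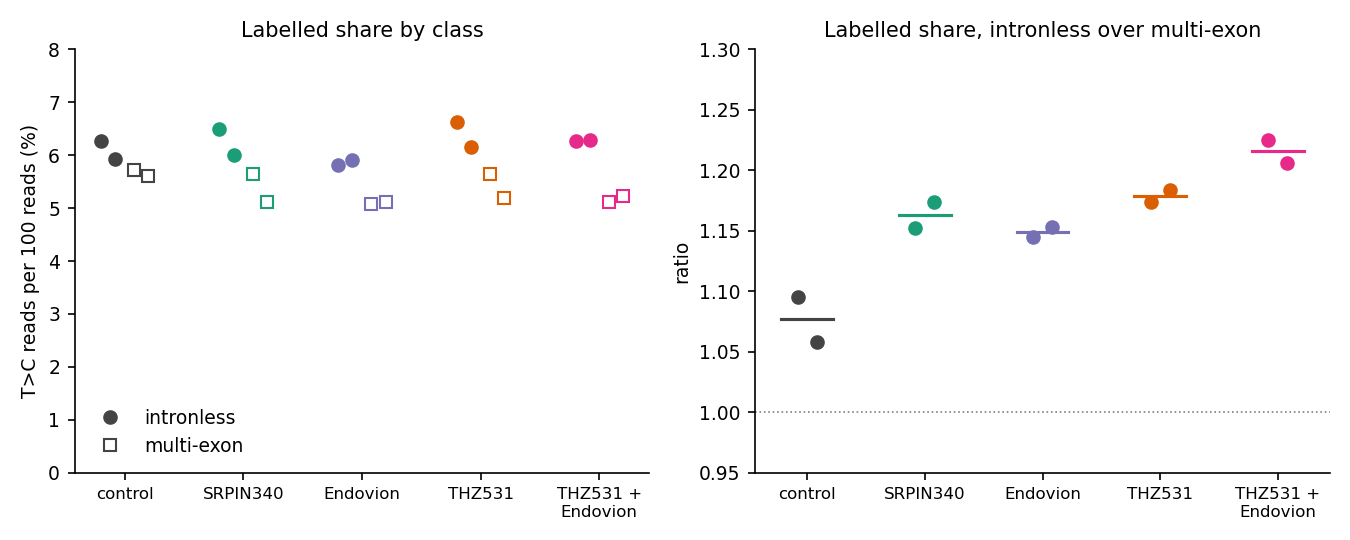
Labelled share in percent for intronless (filled circles) and multi-exon genes (open squares) by library on the left, and the ratio of the 2 shares on the right, whose axis starts at 0.95. Each group has 2 libraries and bars on the right are means. The share of intronless genes is above that of multi-exon genes in all 10 libraries, and the ratio runs from 1.06 in a control library to 1.23 in a library of the combination.

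Without the 5 members that had most T>C reads, the ratio was 1.02 and 0.978 in control libraries, 1.02 and 1.03 with Endovion, 1.14 and 1.15 with THZ531, and 1.13 and 1.12 with the combination (exact permutation test, p = 0.00212). Both THZ531 libraries then lay above both libraries of the combination, and the control libraries stayed close to 1. Leaving out members chosen by their T>C reads can itself lower the share of the class. Among single members the control share had a median of 5.40% over the 133 tested for nascent RNA and 5.13% over 9277 multi-exon genes. The share was over 10% in 27 of the 133 (20.3%), against 16.2% of multi-exon genes and 17.2% of those of at most 10000 bases. Among members with at least 200 T>C reads the highest were HPS6 at 40.5%, IER5L at 28.0%, CEBPB at 21.6%, TBCC at 21.4%, JUNB at 20.5% and KBTBD7 at 18.8%. It was 2.38% for SF3B5, a small subunit of the U2 snRNP.

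Gene by gene, the labelled share was tested with edgeR as the interaction of read class and treatment, and a gene was called at a Benjamini-Hochberg adjusted p under 0.05 over all genes tested. It called 0 of 133 members with SRPIN340, where 1 was higher and 3 lower at an unadjusted p under 0.05 and 0.0201% of all genes were called higher and 0.0402% lower. It called 0 with Endovion (3 higher and 14 lower at an unadjusted p under 0.05; 0.0201% of all genes higher and 0.251% lower) and 0 with THZ531 (6 higher and 4 lower at an unadjusted p under 0.05; 0.0302% higher and 0.0603% lower). With the combination it called 1 member, HEXIM1, higher (0.0804% of all genes higher and 0.724% lower), and the count was 0 without control library 2 or either library of the combination and 2 without any 1 library of SRPIN340 or Endovion. The median log2 change of the share over the tested members was -0.09 with SRPIN340, -0.19 with Endovion, -0.06 with THZ531 and -0.18 with the combination, beside -0.11, -0.19, -0.09 and -0.16 over multi-exon genes, so the median member and the summed ratio above do not move alike.

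Nascent RNA was tested per gene as T>C reads with edgeR over all 10 libraries, and changes are log2 fold changes against control with the SE of the fit. Values per library are given in CPM, for T>C reads (T>C CPM) or all reads (CPM), after TMM scaling. They are not divided by length, so they compare libraries for 1 gene and not genes with each other. Each of the 4 treatments was set against the same 2 control libraries, so their calls are not independent of each other.

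With SRPIN340, 1 of 133 members was higher (0.845% of all genes tested) and 3 were lower (0.191%). The higher one was CEBPB, a leucine zipper transcription factor of the early response, and SOX4 and SFN were among the lower ones. With Endovion 3 members were higher (2.04% of all genes) and 3 lower (0.623%): CEBPB, JUN and PNMA1 rose, while P2RY1 and SFN were among those that fell. The median log2 change of the tested members was -0.00 with SRPIN340 and -0.11 with Endovion, against -0.01 and -0.01 over multi-exon genes and -0.11 and -0.13 over those of at most 10000 bases. The SRPIN340 count of 4 was 0 without control library 2, 1 without SRPIN340 library 1 and 0 without SRPIN340 library 2. The Endovion count of 6 was 12 without control library 1, 1 without control library 2 and 3 without Endovion library 2.

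With THZ531, 6 members were higher (4.51% of 133, against 3.86% of all genes) and 10 were lower (7.52%, against 3.6%). The higher ones included IER5, IER5L, JUNB, JUN and HEXIM1, which are regulators of transcription or genes named for an immediate early response. The lower ones were PPP1R3D, FRAT1, DDX28, FANCF, DNAJC30, DOLK, HPS6, ITPRIPL2, RBM15B and KBTBD7, which serve DNA repair, mitochondria, glycosylation, RNA modification and protein turnover among other tasks. With the combination, 4 members were higher (3.01%, against 4.61%) and 20 lower (15.0%, against 3.49%). Of multi-exon genes of at most 10000 bases, 3.81% were higher and 3.54% lower with THZ531, and 4.21% higher and 6.28% lower with the combination. Counts were 10 instead of 16 without THZ531 library 2, and for the combination 14 instead of 24 without control library 2 and 8 without library 1 of the combination.

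The median log2 change of the tested members was -0.21 with THZ531 and -0.35 with the combination, against -0.01 and 0.00 over 9277 multi-exon genes. Multi-exon genes of at most 10000 bases lay in between, at -0.08 and -0.16. With THZ531, 78 of 133 members were below 0 (58.6%), against 50.5% of multi-exon genes, and with the combination 87 were (65.4%), against 49.9%. Of multi-exon genes of at most 10000 bases, 57.0% were below 0 with THZ531 and 60.5% with the combination. Without control library 1 the difference of the medians with THZ531 was -0.07 instead of -0.20, and without control library 2 it was -0.08. These are shifts relative to the other genes of the library.

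**Figure D3:**
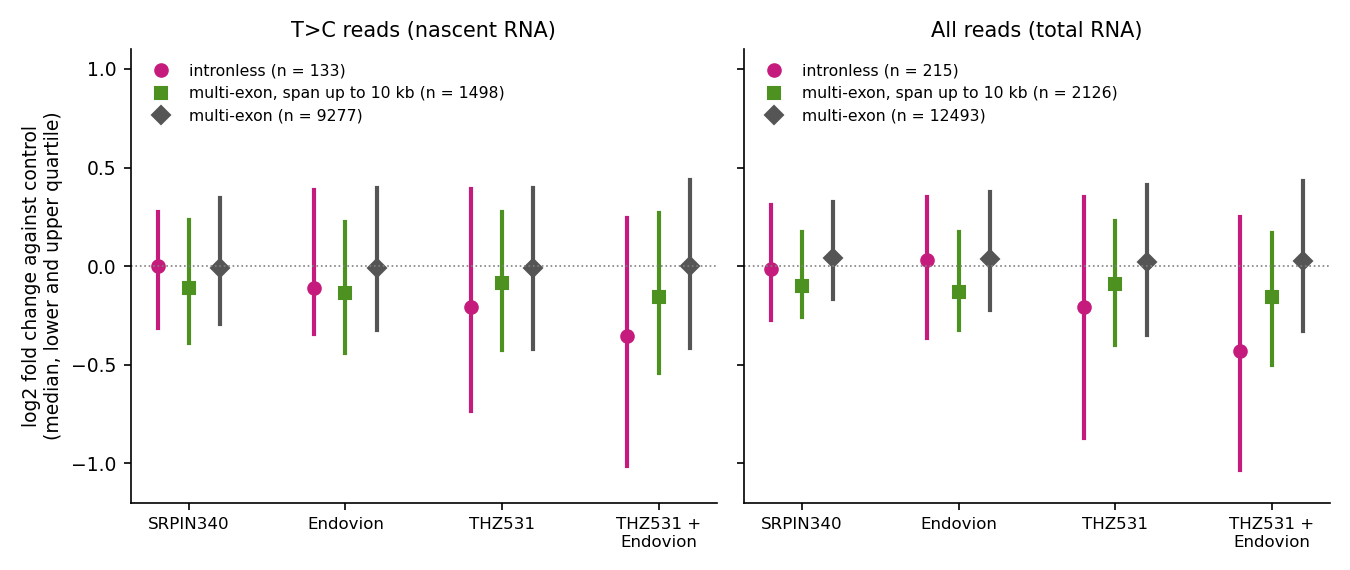
Median log2 fold change against control (points) with lower and upper quartile (bars) of T>C reads (left) and all reads (right), for tested intronless genes, multi-exon genes with a span of at most 10 kb and all multi-exon genes. The bars show the spread over genes, not an error. Intronless genes lie lowest with THZ531 (-0.21 on both sides) and the combination (-0.35 and -0.43), and their bars overlap those of the other classes.

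JUN and JUNB are subunits of the AP-1 transcription factor. JUN (chr1:58776845-58784048, minus strand) had 72.1 and 60.2 T>C CPM in the control libraries, 87.9 and 112 with SRPIN340, 180 and 144 with Endovion, 132 and 183 with THZ531, and 258 and 138 with the combination. All treated libraries lay above both control libraries, and the increase was called with Endovion (1.29 ± 0.24, adjusted p = 0.000414), THZ531 (1.24 ± 0.24, adjusted p = 0.000438) and the combination (1.58 ± 0.24, adjusted p = 5.27e-06). With SRPIN340 the change was 0.59 ± 0.25 (adjusted p = 0.329), and without Endovion library 1 the adjusted p with Endovion was 0.0519. JUNB (chr19:12791486-12793315, plus strand) had 107 and 91.5 T>C CPM in control cells, 143 and 90.8 with SRPIN340, 71.4 and 99.1 with Endovion, 213 and 246 with THZ531, and 184 and 146 with the combination. Only the libraries that received THZ531 all exceeded both controls, by 1.20 ± 0.22 with THZ531 (adjusted p = 0.000153) and by 0.73 ± 0.22 with the combination (adjusted p = 0.0303). The latter was not called without control library 2 (adjusted p = 0.21) or without library 1 of the combination (0.338).

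HEXIM1 encodes the protein that, with 7SK RNA, holds the elongation kinase P-TEFb inactive. HEXIM1 (chr17:45148475-45152099, plus strand) had 76.0 and 21.7 T>C CPM in control cells, 60.9 and 101 with SRPIN340, 124 and 140 with Endovion, 271 and 508 with THZ531, and 247 and 252 with the combination. The THZ531 and combination libraries were the highest 4, but the control libraries lay far apart. The change in nascent RNA was 2.95 ± 0.60 with THZ531 (adjusted p = 0.0457) and 2.31 ± 0.60 with the combination (adjusted p = 0.0871). The call with THZ531 was lost when any 1 library of SRPIN340, Endovion or the combination was left out (adjusted p from 0.065 to 0.0951), with the replicate number as a block (0.088) and in a fit of THZ531 and control alone (0.221). All reads of HEXIM1 gave a tighter picture, with 54.7 and 54.8 CPM in control cells, 34.3 and 42.7 with SRPIN340, 66.7 and 68.2 with Endovion, 133 and 211 with THZ531, and 104 and 113 with the combination. Total RNA rose by 1.65 ± 0.18 with THZ531 (adjusted p = 3.87e-05) and by 0.99 ± 0.18 with the combination (adjusted p = 0.00144). The labelled share of HEXIM1 was 7.69% and 2.07% in control libraries and between 9.24% and 12.7% in the 8 treated ones, and its change was 1.48 ± 0.33 on the log2 scale with the combination (adjusted p = 0.0266) and 1.48 ± 0.33 with THZ531 (adjusted p = 0.0638).

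IER5 and IER5L belong to a family of proteins made early after growth or stress signals, and IER5 acts on the heat shock factor HSF1. IER5L (chr9:129175552-129178261, minus strand) had 396 and 301 T>C CPM in control cells, 373 and 369 with SRPIN340, 317 and 322 with Endovion, 726 and 837 with THZ531, and 373 and 434 with the combination. Both THZ531 libraries stood clear of the other 8, with a change of 1.16 ± 0.16 (adjusted p = 5.87e-07), while the combination overlapped control at 0.21 ± 0.16 (adjusted p = 0.496). IER5 (chr1:181088700-181092900, plus strand) had 126 and 169 in control cells, 114 and 129 with SRPIN340, 137 and 146 with Endovion, 190 and 278 with THZ531, and 282 and 227 with the combination. IER5 rose by 0.66 ± 0.20 with THZ531 (adjusted p = 0.0304; 0.266 without control library 1 and 0.514 without THZ531 library 2). With the combination it rose by 0.79 ± 0.20 (adjusted p = 0.00651; 0.117 without control library 1 and 0.183 without library 1 of the combination). In total RNA, IER5 rose by 0.81 ± 0.13 with THZ531 (adjusted p = 0.00037) and by 0.79 ± 0.13 with the combination (adjusted p = 0.000481). IER5L was also called higher in total RNA with THZ531 and with the combination. Its changes ran from 1.05 to 1.75 and from 0.301 to 1.01 when 1 library was left out.

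SOX4, a transcription factor of progenitor cells, had less nascent RNA in each library with SRPIN340 or Endovion than in either control. It had 386 and 374 T>C CPM in control cells, 218 and 252 with SRPIN340, 249 and 285 with Endovion, 448 and 444 with THZ531, and 241 and 273 with the combination. The change was -0.69 ± 0.16 with SRPIN340 (adjusted p = 0.0153), -0.51 ± 0.16 with Endovion (adjusted p = 0.0811), 0.23 ± 0.16 with THZ531 (adjusted p = 0.439) and -0.56 ± 0.16 with the combination (adjusted p = 0.0211). Leaving out either control library or either SRPIN340 library took the SRPIN340 call to an adjusted p between 0.0532 and 0.286, and leaving out either control library or either combination library took that of the combination to between 0.0521 and 0.234. CEBPB had 504 and 462 in control cells, 783 and 734 with SRPIN340, 744 and 792 with Endovion, 386 and 362 with THZ531, and 652 and 493 with the combination. It rose by 0.65 ± 0.15 with SRPIN340 (adjusted p = 0.0136) and by 0.67 ± 0.15 with Endovion (adjusted p = 0.0043), and its change with THZ531 was -0.37 ± 0.15 (adjusted p = 0.14). The calls were lost without control library 2 (adjusted p = 0.234 for SRPIN340 and 0.0983 for Endovion), SRPIN340 library 1 (0.143), SRPIN340 library 2 (0.0938) or Endovion library 2 (0.0567).

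SFN, the 14-3-3 sigma protein of epithelial cells, had more T>C reads than any other member, 16935 over the 10 libraries. It had 1343 and 2076 T>C CPM in control cells, 1035 and 1216 with SRPIN340, 985 and 870 with Endovion, 1816 and 1551 with THZ531, and 985 and 1105 with the combination. The 6 libraries with SRPIN340 or Endovion lay below both controls, and the THZ531 libraries lay between them. The change was -0.88 ± 0.15 with Endovion (adjusted p = 0.000143), -0.60 ± 0.15 with SRPIN340 (adjusted p = 0.0302), -0.71 ± 0.15 with the combination (adjusted p = 0.00134) and -0.02 ± 0.15 with THZ531 (adjusted p = 0.967). Without control library 2 the change with Endovion was -0.53 (adjusted p = 0.115), that with SRPIN340 -0.25 (0.78) and that with the combination -0.36 (0.247). The SRPIN340 call was also lost without SRPIN340 library 1 (0.376) or 2 (0.0873), and that of the combination without its library 1 (0.0587).

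**Figure D4:**
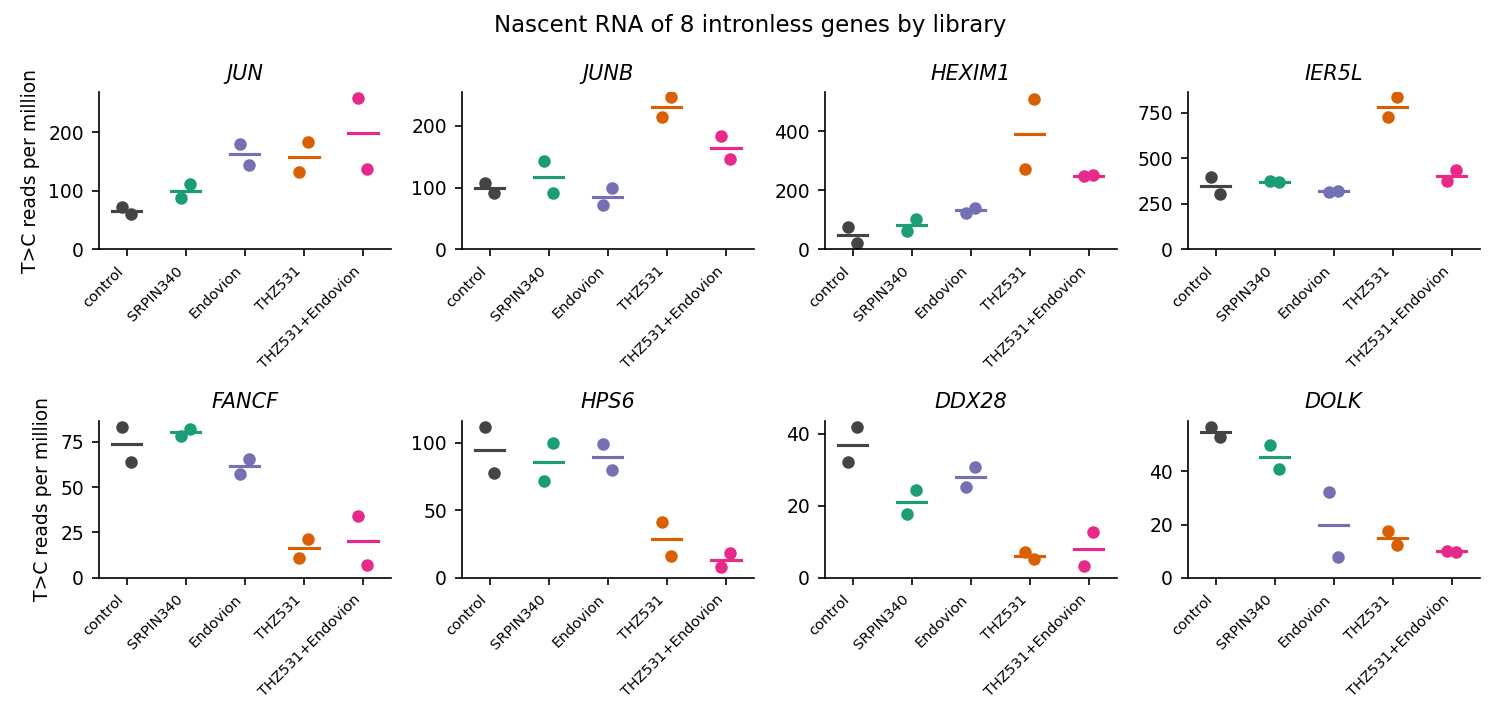
T>C CPM by library for JUN, JUNB, HEXIM1, IER5L, FANCF, HPS6, DDX28 and DOLK, on separate axes that start at 0. Points are libraries, 2 per group, and bars their mean. The THZ531 libraries are above both controls for the first 4 genes and below both for the last 4.

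FANCF, a subunit of the Fanconi anaemia core complex that ubiquitinates FANCD2 at DNA crosslinks, fell with THZ531. FANCF (chr11:22622533-22625823, minus strand) had 83.0 and 64.2 T>C CPM in control cells, 78.5 and 82.0 with SRPIN340, 57.5 and 65.4 with Endovion, 11.1 and 21.4 with THZ531, and 33.9 and 6.89 with the combination. The 4 libraries with THZ531 were below the other 6, by 2.24 ± 0.40 on the log2 scale below control with THZ531 (change -2.24, adjusted p = 0.000107) and with a change of -1.81 ± 0.38 with the combination (adjusted p = 0.00107; 0.0963 without library 2 of the combination). Total RNA of FANCF had 29.0 and 24.2 CPM in control cells and 8.37 and 8.53 with THZ531, a change of -1.66 ± 0.18 (adjusted p = 1.74e-05).

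Mitochondrial proteins were among the lower members. DDX28, a helicase of mitochondrial ribosome assembly (chr16:68020916-68023232, minus strand), had 32.2 and 41.7 T>C CPM in control cells, 17.6 and 24.4 with SRPIN340, 25.3 and 30.8 with Endovion, 7.16 and 5.08 with THZ531, and 3.39 and 12.8 with the combination. Its change was -2.54 ± 0.54 with THZ531 (adjusted p = 0.00107) and -2.21 ± 0.54 with the combination (adjusted p = 0.00449; 0.0537 without control library 2 and 0.198 without library 1 of the combination). In total RNA it was -2.36 ± 0.23 (adjusted p = 9.45e-06) and -2.42 ± 0.23 (adjusted p = 1.44e-05). DNAJC30, a mitochondrial co-chaperone for the renewal of complex I (chr7:73680918-73683453, minus strand), had 62.4 and 57.8 in control cells, 37.9 and 41.9 with SRPIN340, 33.8 and 51 with Endovion, 16.3 and 15.3 with THZ531, and 43.2 and 9.84 with the combination. Its change was -1.92 ± 0.42 with THZ531 (adjusted p = 0.00138) and -1.15 ± 0.40 with the combination (adjusted p = 0.0587), whose libraries lay far apart.

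DOLK, the kinase that makes dolichol phosphate for N-glycosylation (chr9:128945530-128947603, minus strand), had 56.6 and 53.0 T>C CPM in control cells, 50.1 and 40.7 with SRPIN340, 32.2 and 7.70 with Endovion, 17.6 and 12.2 with THZ531, and 10.2 and 9.84 with the combination. It fell by 1.85 ± 0.44 with THZ531 (adjusted p = 0.00338; 0.092 without THZ531 library 2) and by 2.44 ± 0.47 with the combination (adjusted p = 0.000224). HPS6, a subunit of the BLOC-2 complex of lysosome-related organelles (chr10:102065349-102068036, plus strand), had 111 and 77.8 in control cells, 71.7 and 100 with SRPIN340, 99.0 and 79.8 with Endovion, 41.7 and 16.3 with THZ531, and 7.62 and 18.7 with the combination. It fell by 1.65 ± 0.33 with THZ531 (adjusted p = 0.00058; 0.0705 without THZ531 library 2) and by 2.87 ± 0.38 with the combination (adjusted p = 3.05e-07). In total RNA the change of HPS6 was -0.83 ± 0.40 with THZ531 (adjusted p = 0.15).

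KBTBD7, a substrate adaptor of CUL3 ubiquitin ligases (chr13:41189834-41194569, minus strand), had 354 and 432 T>C CPM in control cells, 275 and 310 with SRPIN340, 234 and 286 with Endovion, 179 and 183 with THZ531, and 112 and 178 with the combination. All treated libraries lay below both controls, and the change was called with THZ531 (-1.12 ± 0.19, adjusted p = 2.82e-05) and with the combination (-1.44 ± 0.19, adjusted p = 2.01e-07). Its neighbour KBTBD6, also a CUL3 adaptor, had 75.3 and 66.6 in control cells and 69.0 and 77.3 with THZ531, a change of 0.04 ± 0.28 (adjusted p = 0.969). RBM15B, a subunit of the writer complex of m6A in RNA (chr3:51391285-51397908, plus strand), had 197 and 191 in control cells, 230 and 183 with SRPIN340, 212 and 191 with Endovion, 88.5 and 83.4 with THZ531, and 118 and 118 with the combination. RBM15B fell by 1.17 ± 0.20 with THZ531 (adjusted p = 5.71e-05). With the combination it fell by 0.72 ± 0.20 (adjusted p = 0.0143), and leaving out either control library or either combination library took that to between 0.0587 and 0.118.

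TBCC, a tubulin folding cofactor, had 246 and 312 T>C CPM in control cells, 221 and 232 with THZ531 and 103 and 174 with the combination, where the change was -1.01 ± 0.20 (adjusted p = 0.000384; 0.107 without library 1 of the combination). P2RY1, a receptor for ADP, had 43.8 and 57.0 in control cells, 23.8 and 7.70 with Endovion, 29.9 and 38.6 with THZ531, and 11 and 11.8 with the combination. The change of P2RY1 was -2.13 ± 0.47 with the combination (adjusted p = 0.00149) and -1.63 ± 0.44 with Endovion (adjusted p = 0.0249; 0.23 without control library 2 and 0.4 without Endovion library 2). PNMA1 was called with Endovion (adjusted p = 0.0486) from 5.15 and 0 T>C CPM in control cells against 15.3 and 20.2, and leaving out any 1 of control library 2, the Endovion libraries or the combination libraries took that to between 0.0535 and 0.43.

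Many of these nascent calls were lost when all intervals of every gene were summed. The members' own counts change little by this, since 702 of the 710 intervals of intronless genes had been kept. Of the 55708 intervals of multi-exon genes, 25920 had been kept. Why the calls were lost was not tested. With a plain sum of all intervals, which counts some reads several times, the called members were KBTBD7, HEXIM1, IER5L and RBM15B with THZ531, and KBTBD7, HPS6 and JUN were among the 4 called with the combination. The log2 changes with THZ531 were then 1.23 for JUN, -2.23 for FANCF, -2.56 for DDX28 and -1.93 for DNAJC30, and the adjusted p-values of edgeR were 0.0738, 0.0642, 0.0578 and 0.101. For JUNB, IER5, HPS6 and DOLK with THZ531 the adjusted p-values were 0.0505, 0.201, 0.0868 and 0.115, and for JUN with Endovion 0.114. No call of SFN, CEBPB or SOX4 in nascent RNA passed under this sum (adjusted p from 0.079 to 0.37).

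Several members with many T>C reads were not called in nascent RNA with any treatment. PCBP1 and HNRNPA0, which bind RNA, had changes of 0.02 ± 0.14 and -0.23 ± 0.14 with THZ531 (adjusted p = 0.965 and 0.372). SF3B5 had 0.03 ± 0.16 (adjusted p = 0.961), the histone variant gene H2AX 0.10 ± 0.17 (adjusted p = 0.805) and IRF2BPL, a regulator of transcription, 0.22 ± 0.19 (adjusted p = 0.55). With SEs of 0.14 to 0.19, small changes in these genes were not detectable.

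**Figure D5:**
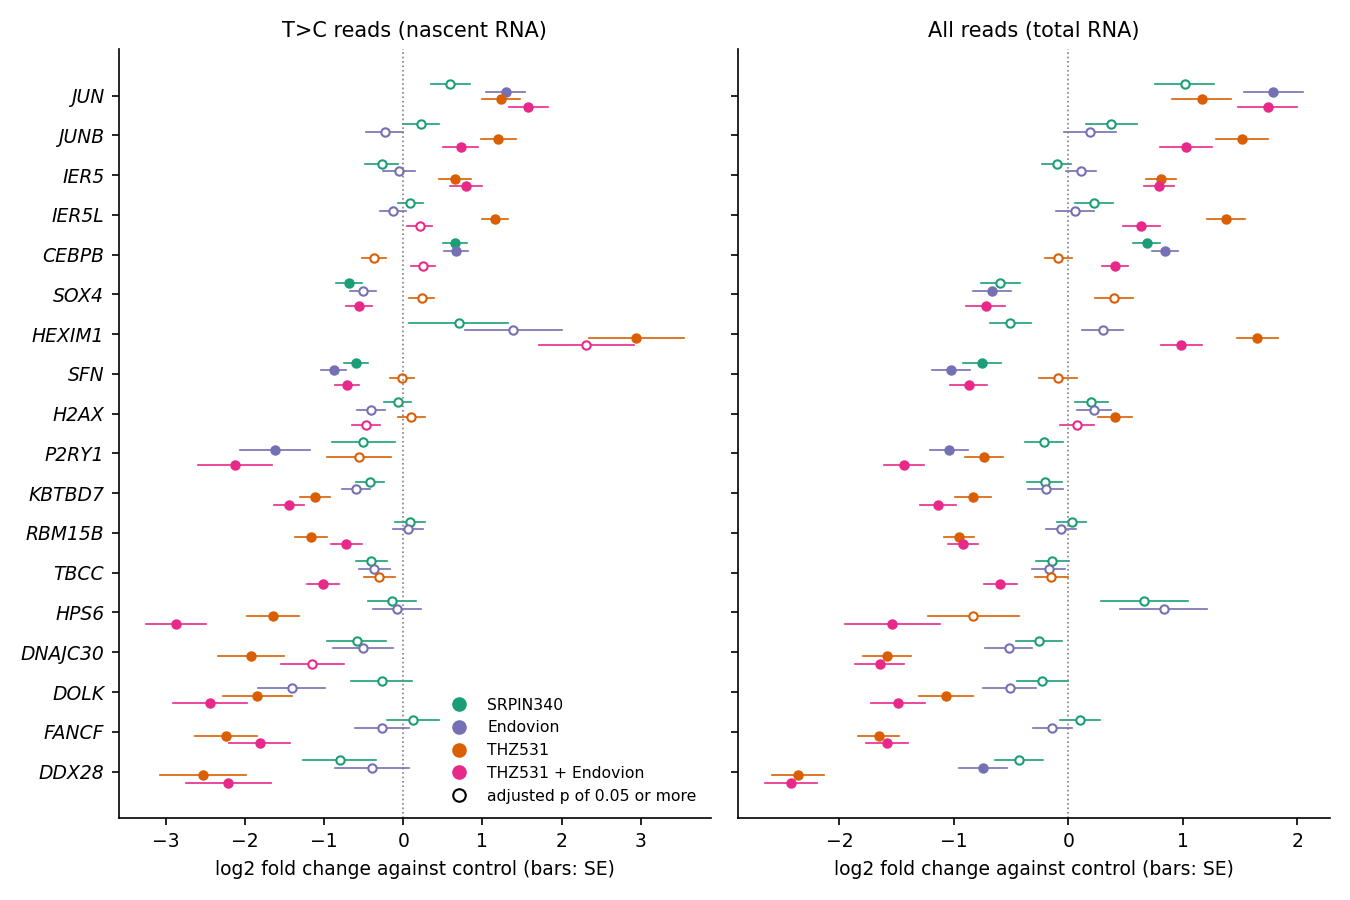
Log2 fold changes against control with their SE for 18 intronless genes and 4 treatments, for T>C reads (left) and all reads (right). Filled points have an adjusted p under 0.05 (edgeR, 2 libraries per group). JUN, JUNB, IER5 and HEXIM1 lie above 0 with THZ531 and the combination on both sides, and FANCF, DDX28, DOLK and KBTBD7 lie below 0.

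Endovion added to THZ531 was compared directly, as the combination against THZ531. In nascent RNA, 0 of 133 members were higher (0.141% of all genes; 4 at an unadjusted p under 0.05 and 1 by DESeq2) and 5 were lower (0.181%). Among these, RRS1, a ribosome assembly factor, changed by -0.96, IER5L by -0.95 ± 0.16 (adjusted p = 0.000447), SOX4 by -0.79 ± 0.17 (adjusted p = 0.00731) and SFN by -0.69 ± 0.15 (adjusted p = 0.0199). The count of 5 was 2 without THZ531 library 1, 1 without THZ531 library 2 and 0 without library 1 of the combination. RRS1 shares a stretch with another gene and its reads may be shared. The interaction, which asks whether Endovion acted otherwise with THZ531 than without it, called 0 of 133 members (0.0201% of all genes higher and 0.282% lower; 2 higher and 12 lower at an unadjusted p under 0.05). The smallest adjusted p was that of FRAT2 (-1.86, adjusted p = 0.0728), followed by IER5L (-0.82, adjusted p = 0.0931).

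Total RNA, the count of all reads, moved in more members. With SRPIN340, 7 of 215 members were higher (1.82% of all genes) and 3 lower (0.143%), and with Endovion 17 were higher (8.9%) and 14 lower (2.54%). With THZ531, 28 members were higher (13.02% of 215, against 16.6% of all genes) and 63 lower (29.3%, against 14.1%). With the combination, 21 were higher (9.77%, against 16.6%) and 71 lower (33.0%, against 12.4%). Of multi-exon genes, 13.7% were lower with THZ531 and 12.1% with the combination, and of those of at most 10000 bases 15.5% and 19.2%. For Endovion added to THZ531, 0 of 215 members were higher (0.327%; 8 at an unadjusted p under 0.05) and 3 lower (0.184%), SOX4 and RHOB among them.

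The median log2 change of total RNA over the tested members was -0.01 with SRPIN340, 0.03 with Endovion, -0.21 with THZ531 and -0.43 with the combination. Over multi-exon genes it was 0.04, 0.03, 0.02 and 0.03, and over those of at most 10000 bases -0.10, -0.13, -0.09 and -0.15. The SRPIN340 count of 10 was 26 without control library 1, 0 without control library 2, 6 and 0 without SRPIN340 libraries 1 and 2, and 4 without either Endovion library. The Endovion count of 31 was 9 without control library 2, 8 without Endovion library 1 and 11 without Endovion library 2, and the THZ531 count of 91 was 58 without THZ531 library 2.

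By role, a list of early response and stress factors also held factors of progenitor cells and lineages, such as SOX4 and POU3F2. Of its 16 genes tested for total RNA, 6 rose and 2 fell with THZ531 (16.6% and 14.1% of all genes). With the combination 7 rose and 2 fell (16.6% and 12.4%), while 1 rose and 1 fell with SRPIN340 and 2 rose and 2 fell with Endovion. In nascent RNA 5 of 12 rose and 0 fell with THZ531 (3.86% and 3.6% of all genes), and 3 rose and 1 fell with the combination (4.61% and 3.49%). The role lists are small and their counts were not tested against other genes. The median log2 change of the 16 in total RNA was 0.56 with THZ531 and 0.34 with the combination. SOX12 fell in total RNA by 0.55 ± 0.15 with the combination (adjusted p = 0.0113; 0.0702 without control library 2 and 0.0903 without library 1 of the combination), and POU3F2, a factor of neural lineages, fell by 0.68 ± 0.17 with THZ531 (adjusted p = 0.00773). CEBPD had nascent changes of 0.57 ± 0.34 with THZ531 and 0.63 ± 0.34 with the combination (adjusted p = 0.341 and 0.283).

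Of 5 G protein-coupled receptors other than Frizzled and olfactory ones that were tested for total RNA, 0 rose and 3 fell with Endovion, with THZ531 and with the combination alike, where 2.54%, 14.1% and 12.4% of all genes were lower. They included P2RY1 and GPR135, the latter named after its values were seen. GPR135 shares a stretch of 203 bases at 100% identity with L3HYPDH, so its reads may be shared. P2RY1 had 41.3 and 49.2 CPM in control cells, 23.7 and 20.2 with Endovion, 30.3 and 23.8 with THZ531, and 14.7 and 18.8 with the combination. The orphan receptor GPR27 had 42.2 and 41.9 in control cells and 42.5 and 47.9 with THZ531, a change of 0.10 ± 0.14 (adjusted p = 0.618).

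Frizzled receptors, which bind Wnt proteins, parted. Of 5 tested for total RNA, 1 rose and 1 fell with THZ531 (16.6% and 14.1% of all genes) and with the combination (16.6% and 12.4%), and 2 rose with Endovion (8.9%). FZD7, named after its values were seen, had 1.6 and 1.35 CPM in control cells, 3.10 and 4.16 with SRPIN340, 4.97 and 5.59 with Endovion, 3.32 and 4.93 with THZ531, and 5.26 and 4.50 with the combination. FZD9, named likewise, had 6.56 and 6.90 in control cells, 6.06 and 4.48 with SRPIN340, 6.81 and 6.28 with Endovion, 1.92 and 1.23 with THZ531, and 2.02 and 1.94 with the combination. FZD7 was thus above control in all treated libraries, and FZD9 below it by 2.07 ± 0.29 on the log2 scale with THZ531 (change -2.07, adjusted p = 0.000123).

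FRAT1, which binds GSK3 in Wnt signalling and was named after its values were seen, had 15.0 and 18.9 CPM in control cells, 17.9 and 14.2 with SRPIN340, 16.6 and 22.1 with Endovion, 3.32 and 2.84 with THZ531, and 1.84 and 2.98 with the combination. Its total RNA changed by -2.45 ± 0.25 with THZ531 (adjusted p = 1.12e-05) and by -2.82 ± 0.26 with the combination (adjusted p = 1.04e-05). OTUD1, a deubiquitinase named likewise, had 1.14 and 0.547 in control cells, 3.22 and 3.40 with SRPIN340, 4.09 and 5.24 with Endovion, 2.54 and 4.56 with THZ531, and 5.96 and 5.28 with the combination, so that all treated libraries were above both controls. Its change was 2.44 ± 0.38 with Endovion (adjusted p = 0.00247) and 2.71 ± 0.38 with the combination (adjusted p = 0.000143).

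Of 7 ubiquitin ligase adaptors and related proteins tested for total RNA, 1 rose and 3 fell with THZ531 (16.6% and 14.1% of all genes) and with the combination (16.6% and 12.4%). RNF26, a ubiquitin ligase of the endoplasmic reticulum, had 40.03 and 41.1 CPM in control cells, 25.1 and 21.6 with THZ531 and 24.6 and 23.4 with the combination, a change of -0.79 ± 0.14 with THZ531 (adjusted p = 0.000654). Of 7 proteins that bind nucleic acids, 2 rose and 1 fell with THZ531 (16.6% and 14.1% of all genes); the lower one was PURB, with 170 and 156 in control cells, 93.8 and 96.5 with THZ531 and 91.7 and 91.6 with the combination (-0.77 ± 0.11, adjusted p = 9.83e-05, and -0.83 ± 0.11, adjusted p = 7.78e-05). RHOB, a small GTPase made early after stress, changed in total RNA by 0.63 ± 0.16 with THZ531 (adjusted p = 0.00822; 0.115 without control library 2 and 0.172 without THZ531 library 2). The 3 heat shock genes of the class had too few reads to be tested.

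The mRNA export machinery, on which intronless mRNAs depend and whose genes are not members, was compared as the surrounding pathway. Of 24 tested genes of TREX, the cap-binding complexes, the TREX-2 complex and the export receptor, 7 rose and 2 fell in total RNA with THZ531 (16.6% and 14.1% of all genes), 6 rose and 1 fell with the combination (16.6% and 12.4%), 2 rose and 0 fell with Endovion (8.9% and 2.54%), and 1 rose and 0 fell with SRPIN340 (1.82% and 0.143%). None was called in nascent RNA (edgeR, 0 of 24 with each treatment).

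Sequence features of the members were set against their change in total RNA with THZ531. ATTTA was present in the intervals of 26 of 28 higher members (92.9%), 47 of 63 lower members (74.6%) and 90 of 124 not called (72.6%), with median interval lengths of 1338, 1499 and 895 bases. TATTTAT occurred 0.366 times per kb in higher members, 0.282 in lower ones, 0.356 in those not called and 0.328 in multi-exon genes. The median labelled share in control cells was 7.72% for higher and 4.71% for lower members, a measure that shares its control reads with the change itself. These shares are descriptions of these genes and were not tested.

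Some intronless genes are copies of spliced mRNAs, so that reads can be assigned to either. Of the 215 members tested for total RNA, 29 had a stretch of at least 100 bases at 95% identity or more to a transcript of another gene. The labelled share of ATP5MGL, a copy of the ATP synthase subunit gene ATP5MG, was 3.94% and 7.56% in control libraries, 73.5% and 72.3% with SRPIN340, 4.69% and 2.72% with Endovion, 73.0% and 2.32% with THZ531, and 3.07% and 64.4% with the combination. The share was thus high in both SRPIN340 libraries and split within the THZ531 group and within the combination, and the cause was not tested. The aligned 110 bases of ATP5MGL differ from ATP5MG by 2 substitutions, gaps not counted. Of these, 0 have T in ATP5MGL and C in ATP5MG. EIF5AL1, a copy of the translation factor gene EIF5A, differs from it by 16 substitutions over 645 aligned bases, gaps not counted. Of these, 3 have T in EIF5AL1 and C in EIF5A. A read from EIF5A placed on EIF5AL1 would carry an apparent T>C conversion at those 3 positions, and EIF5AL1 had a labelled share of 15.8% in control cells. PABPC3, a copy of a poly(A)-binding protein gene, had between 4.71 and 66.4 CPM in the 10 libraries, and both of these extremes were in treated libraries. Their part in the class values was measured by leaving the 29 out: the difference between the class medians of total RNA with the combination was then -0.41 instead of -0.46.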

How the data were processed

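22RV1 cells were profiled by SLAM-seq in 5 groups of 2 libraries. The authors made 3′ end libraries, counted conversions with SLAM-DUNK on hg38, and deposited 1 table per library. Its counts are not normalized: for each 3′ UTR interval, all reads, reads with T>C, the conversions in them and the T positions covered. The conversion rate deposited beside them is a fraction and the reads-per-million column a score, and neither was used. The submitters' processing notes name Bowtie2 2.3.4.1, SAMtools 1.6 and DESeq2 1.38.2. Version and settings of SLAM-DUNK, and whether molecular identifiers were collapsed, are not given in the sources used here, so counts may include PCR copies.

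Of 104653 intervals, 92826 lay on main chromosomes and matched a GENCODE v44 transcript. Overlapping intervals of a gene repeat the same reads, so the one with most reads was kept, which left 57382 intervals on 31015 genes, summed per gene. The design had foreseen a plain sum, which is given as an alternative. Intervals of 1580 genes, 9 of them intronless, overlap another gene.

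The test on counts was that of edgeR 4.0.16 under R 4.3.3 (TMM, filterByExpr, robust quasi-likelihood fit over 10 libraries, 5 residual degrees of freedom) and called at a Benjamini-Hochberg adjusted p under 0.05 over all genes tested, 9946 for T>C reads and 14689 for all reads. The share was tested as the interaction of read class with treatment, each library being a block. Alternatives were DESeq2 1.42.0, other scalings and filters, a fit of 2 groups, other members and each library left out. Class values per library were compared by exact permutation. Near copies were sought with BLAST 2.17.0. Promoters were matched by symbol for 162 of 215 members. The scripts were tested on simulated data.

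The genes named are the 12 members with most T>C reads, up to 6 that rose and 6 that fell per treatment in nascent RNA (adjusted p under 0.05, at least 20 T>C reads in each library of the higher group, treated libraries beyond both controls), role list members with at least 200 T>C reads, and any with a called interaction. Others are said to be chosen after their values were seen or are listed by name as called. Some genes that this rule or the calls would name are not reported here. The members and lists were chosen with earlier results of these data known. Columns of the authors' own comparisons were not part of the tables.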

Additional observations from a re-analysis of the deposited data

How the results depend on the processing

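Calls rest on 2 libraries per group, and among single libraries control library 2 mattered most: of 98 calls of named genes, 41 were lost without it, 40 with a plain sum of overlapping intervals, 21 in a fit of 2 groups, 8 with the replicate number as a block and 7 with DESeq2, and 38 held under every alternative run. With 1 library left out, its group has a lone library that is assumed to vary like the others, and counts of called members ran as follows, for SRPIN340, Endovion, THZ531 and the combination in turn: nascent RNA 0 to 5, 1 to 12, 10 to 16 and 8 to 25 (Endovion added to THZ531, 0 to 6); total RNA 0 to 26, 8 to 38, 58 to 95 and 63 to 103; labelled share 0 to 1, 0 to 2, 0 to 1 and 0 to 2. The difference between the median of intronless and multi-exon genes ran from -0.11 to 0.0283, -0.15 to 0.0220, -0.20 to -0.0709 and -0.43 to -0.32 in nascent RNA and from -0.0786 to -0.0270, -0.0536 to 0.0197, -0.33 to -0.19 and -0.47 to -0.39 in total RNA. T>C reads per 1000 with THZ531 differed from control by -0.223 to 0.118, and the labelled share with SRPIN340 by -0.0955 to 0.400.

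A plain sum of overlapping intervals, which counts reads several times, called 0 members in nascent RNA with SRPIN340 and with Endovion, 4 with THZ531, 4 with the combination and 0 for Endovion added to THZ531, 0 in total RNA with SRPIN340, and 0 in the share with the combination; conversions per covered T position also gave 0 there. A fit of 2 groups called 1 member (nascent) and 0 (total) with SRPIN340. In total RNA with SRPIN340, DESeq2 called 16 members and no low-count filter 20. At the limits of the paper, an unadjusted p under 0.05 and a log2 change of 1 in size, 26 members were called in nascent RNA with THZ531, 59 in total RNA with the combination, and 2, 4, 7 and 10 in the share.

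Against multi-exon genes of at most 10000 bases, the class difference was 0.11, 0.0241, -0.12 and -0.19 in nascent RNA and 0.0848, 0.17, -0.12 and -0.28 in total RNA, so it changed sign with Endovion in both and with SRPIN340 in total RNA. Without the low-count filter it was 0.0 with Endovion, 0.0 with THZ531 and -0.14 with the combination in nascent RNA, and 0.0 with SRPIN340 and -0.36 with the combination in total RNA, since most added genes have almost no reads. With a mean of at least 20 reads it was -0.0807 with SRPIN340 in nascent RNA. Without members that have a near copy, an alternative chosen after seeing the data, it was 0.0639 with Endovion, -0.00463 with SRPIN340 and -0.41 with the combination in total RNA, and T>C reads per 1000 with THZ531 lay 0.0398 above control; without the 5 members with most T>C reads they lay 0.311 above it. In conversions per 100 covered T, the labelled share with SRPIN340 differed by -0.00595. The cause of these shifts was not tested where none is given.

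The replicate numbers did not pair the libraries: deviations of same-numbered libraries correlated between -0.0713 and 0.062. With the replicate block, 4 members were called in total RNA with SRPIN340, and the class difference was -0.17 in nascent RNA with THZ531 and 0.00107 in total RNA with Endovion. The mean ratio of labelled shares lay above control with each treatment under every alternative run. The exact permutation test of the F ratio over the 5 groups gave p from 0.00106 to 0.00847. That test used all 10 libraries, was not run with a library left out, and compares no single treatment with control.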
